A study of Homo sapiens with 4 samples.

Results

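The mRNAs of SR proteins and of hnRNPs were examined in RNA recovered with ORC1, the subunit of the origin recognition complex that marks sites of DNA replication initiation. Members were the protein-coding genes that GENCODE v44 names SRSF or HNRNP, plus TRA2A, TRA2B, SRRM1, SRRM2, SREK1 and PNISR, and 44 of the 63677 genes of the count table were sought in this way, 18 of SR proteins and 26 of hnRNPs. The IDs of HNRNPCL2 and HNRNPCL3 were not found in the table, SRSF8 and HNRNPCL1 had a count of 0 in all 4 libraries, and SRSF12, HNRNPA1L3 and HNRNPCL4 had at most 12 counts in any library and were not tested. This left 16 SR genes and 21 hnRNP genes.

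All libraries came from HCT116, an epithelial line from a human colorectal carcinoma, 48 h after transfection with pcDNA3.1-ORC1-3xFLAG, a plasmid that expresses ORC1 with a 3xFLAG tag. The 2 IP libraries hold RNA recovered with the anti-FLAG M2 antibody from nuclear lysates without crosslinking (native RNA immunoprecipitation, RIP), and the 2 Input libraries hold RNA of the same lysates before the immunoprecipitation. Tagged ORC1 was thus over-expressed in the Inputs too, and no control immunoprecipitation or untransfected cells were analysed here, so RNA bound to the beads or the antibody cannot be told apart from RNA bound to ORC1. The labels do not say whether the replicates were separate cultures, and the p-values therefore measure only the spread between these libraries.

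The 4 libraries held from 9213877 to 27483148 counts, the smallest being Input replicate 2. The study used a codon-optimised ORC1 insert, and how fully its reads were counted as ORC1 was not tested. ORC1 itself stood at 1110 and 18600 CPM (counts scaled to library size with TMM factors) in IP replicates 1 and 2 and at 333 and 5060 CPM in the matching Inputs, so its level was far higher in replicate 2 on both sides, and the difference between IP and Input did not pass the test (log2 fold change 1.87, edgeR adjusted p = 0.374). Of 8 epithelial marker genes 7 passed the count filter, with summed levels of 2430 to 4600 CPM, whereas none of 5 leukocyte markers did, with summed levels of at most 0.856 CPM. Summed levels were 8.82 to 27.7 CPM for 5 fibroblast markers and 0.744 to 3.24 CPM for 4 endothelial markers.

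SR proteins carry one or more RNA recognition motifs, or a related RNA-binding part, and a tail rich in alternating arginine and serine (RS domain), and they mostly help the spliceosome to recognise exons. hnRNPs coat nascent transcripts, often through RNA recognition motifs, KH domains and arginine-glycine rich (RGG) stretches, and many of them oppose exon inclusion or take part in mRNA export and stability. Genes of both families regulate their own mRNAs, often by switching to transcripts that are degraded by nonsense-mediated decay.

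In both families some mRNAs had a higher share in the IP and others had a ratio near or below that of most genes. Among SR genes, SRRM1, PNISR, SRSF11 and SRRM2 were enriched and none was depleted, whereas the classical SRSF1, SRSF3 and SRSF6 had IP levels of about 0.557 to 0.611 of Input without passing the test. Among hnRNP genes, HNRNPDL, HNRNPM, HNRNPK, HNRNPU and HNRNPUL1 were enriched and HNRNPH3 was depleted. Enriched and depleted here mean an edgeR quasi-likelihood adjusted p under 0.05 together with a log2 fold change over 1 or under -1. Counts were scaled by TMM, which sets the bulk of genes to a ratio near 1. By this rule 4 of 16 SR genes and 5 of 21 hnRNP genes were enriched, or 25% and 23.8%, against 10.5% of the 14645 genes tested. Depleted were 0 SR genes and 1 hnRNP gene, against 8.3% of all genes tested, and no test of the lists was made. With the replicate as a block, 4 SR genes and 5 hnRNP genes were enriched and none was depleted, against 13.4% enriched and 13.4% depleted among all genes tested.

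**Figure D1:**
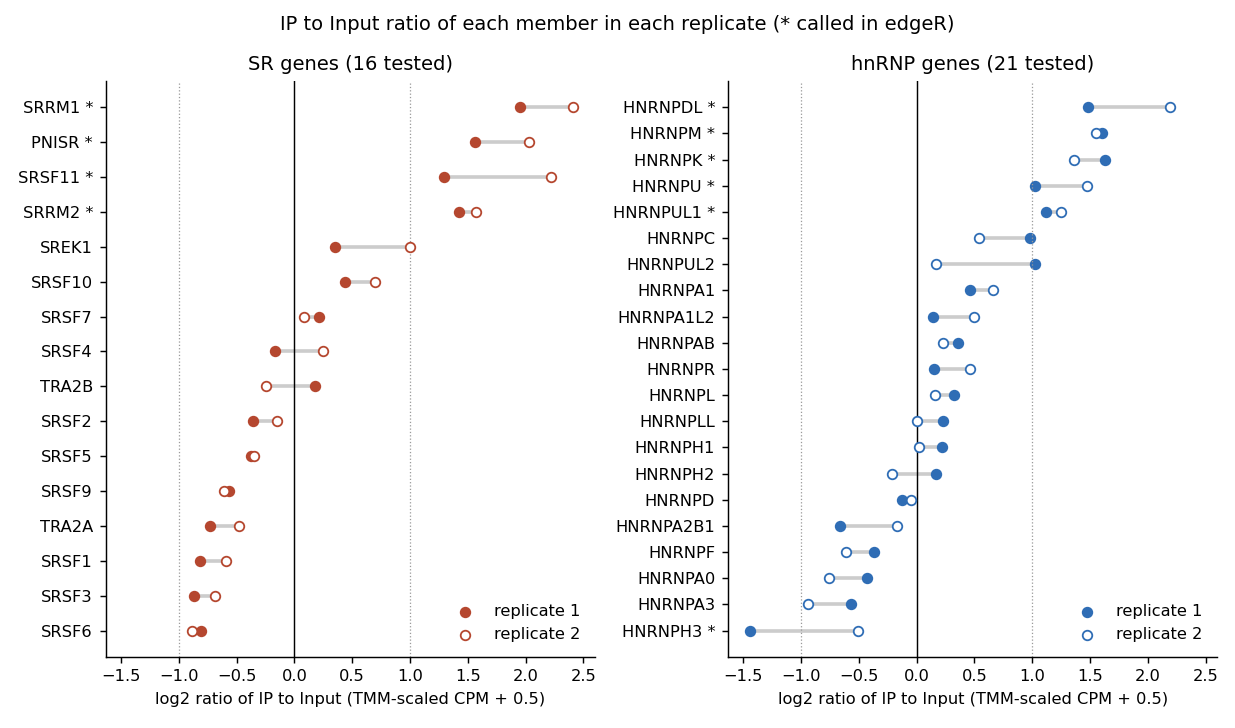
The log2 ratio of IP to Input on TMM-scaled CPM plus 0.5 is plotted for each tested member, with replicate 1 as filled and replicate 2 as open points, SR genes on the left and hnRNP genes on the right, and asterisks for members called in edgeR. The 4 starred SR genes lie between 1.29 and 2.41 in both replicates, while the 3 lowest SR genes lie between -0.89 and -0.59, and HNRNPH3 shows the widest gap between replicates among the lowest hnRNP genes.

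Tandem GAA repeats are among the features examined in the study. A run of 3 copies (GAAGAAGAA) was looked for in the longest transcript of each gene, on the transcribed strand. It was present in 6 of the 16 SR genes, which included all 4 that were enriched, and in 3 of the 21 hnRNP genes, of which HNRNPU alone was enriched. In all of them it lay in the coding sequence of the canonical transcript, as it did in 12.5% of the 12542 protein-coding genes tested. The windows that follow show 45 bases of coding sequence around its first occurrence, from GENCODE v44 transcripts (GRCh38), with the repeat in capitals. The windows of PNISR, SRSF11 and SRSF7 cross an intron, so their genomic spans are longer than the window.
SRRM1 (chr1:24652945-24652989, plus strand): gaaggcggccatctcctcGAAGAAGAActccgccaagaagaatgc
PNISR (chr6:99406130-99408086, minus strand): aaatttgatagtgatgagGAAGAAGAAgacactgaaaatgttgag
SRSF11 (chr1:70250042-70250403, plus strand): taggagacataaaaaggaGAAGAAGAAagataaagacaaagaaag
SRRM2 (chr16:2757799-2757843, plus strand): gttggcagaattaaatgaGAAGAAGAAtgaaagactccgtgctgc
SRSF7 (chr2:38748640-38749559, minus strand): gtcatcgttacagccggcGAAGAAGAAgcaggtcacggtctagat
SRSF4 (chr1:29148693-29148737, minus strand): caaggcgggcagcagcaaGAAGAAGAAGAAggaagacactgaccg
HNRNPU (chr1:244862483-244862527, minus strand): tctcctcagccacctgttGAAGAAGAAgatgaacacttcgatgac
HNRNPAB (chr5:178207148-178207192, plus strand): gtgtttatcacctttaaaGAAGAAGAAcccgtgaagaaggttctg
HNRNPD (chr4:82357346-82357390, minus strand): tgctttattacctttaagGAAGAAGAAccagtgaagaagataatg

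The same 9 bases stood in different reading frames. They encode glutamate in PNISR, HNRNPU, HNRNPAB and HNRNPD, mostly lysine in SRSF11, SRRM2 and SRSF4, and mostly arginine in SRRM1 and SRSF7. HNRNPAB and HNRNPD encode closely related proteins, and their windows are identical at 36 of 45 bases. Of the 9 tested members with the repeat 5 were enriched, at a median log2 fold change of 1.22, and of the 28 without it 4 were enriched, at a median of 0.07. The contrast lay in the SR genes, with 4 of 6 enriched with the repeat and 0 of 10 without it, while among hnRNP genes 1 of 3 with it and 4 of 18 without it were enriched. Over all protein-coding genes tested 30.2% of the 1828 with the repeat and 8.77% of the 10714 without it were enriched, and no test was made of the members. Over all protein-coding genes tested, those with the repeat were also longer, at a median coding length of 2121 bases against 1356 without it. Among SR genes the medians were 1948.5 bases with it and 801.0 without it, and among hnRNP genes 1065.0 and 1303.5. The parts of repeat and coding length in the SR contrast were not tested. SRSF7, SRSF4, HNRNPAB and HNRNPD hold the repeat and were not called, with log2 fold changes from -0.10 to 0.31, and HNRNPDL, HNRNPM, HNRNPK and HNRNPUL1 were enriched without it.

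The stretches with the most RS or SR codon pairs in the 3 SR genes with the lowest log2 fold changes are shown next, with codons that form such pairs in capitals. In them the arginine and serine repeats are spelled with varied codons. The windows were picked for such pairs, so they cannot serve as a test of the GAA repeat. RS stretches of the enriched SR genes are not shown. The SRSF6 and SRSF3 windows cross an intron.
SRSF6 (chr20:43460231-43460548, plus strand): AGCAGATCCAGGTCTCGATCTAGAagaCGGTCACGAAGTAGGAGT
SRSF3 (chr6:36601763-36601974, plus strand): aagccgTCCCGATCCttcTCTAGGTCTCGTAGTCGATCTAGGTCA
SRSF1 (chr17:58005499-58005543, minus strand): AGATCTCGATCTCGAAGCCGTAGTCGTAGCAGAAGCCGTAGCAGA

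Among the SR genes, SRRM1 had the highest log2 fold change, and SRRM2 the lowest of the 4 that were enriched. SRRM1 (chr1:24631716-24673281), a splicing coactivator found with the exon junction complex, stood at 1330 and 1010 CPM in IP replicates 1 and 2 and at 343 and 189 CPM in the Inputs. Both IP values lay above both Input values, and at a log2 fold change of 2.13 ± 0.37 (SE, n = 2 per group, edgeR adjusted p = 0.0134) SRRM1 was higher than 99.3% of all genes tested. SRRM2 (chr16:2752626-2772538), a very long RS protein at the core of nuclear speckles, was the most abundant member in the IP at 2620 and 3200 CPM, against 980 and 1070 CPM in Input. The groups did not overlap, and its log2 fold change was 1.50 ± 0.29 (SE, n = 2 per group, edgeR adjusted p = 0.0169).

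PNISR and SRSF11 followed the same order of libraries at lower levels. PNISR (chr6:99397629-99425331), a nuclear speckle protein that interacts with the SR-related protein pinin, had 246 and 217 CPM in the IP and 83.2 and 52.7 CPM in Input, a log2 fold change of 1.77 ± 0.30 (SE, n = 2 per group, edgeR adjusted p = 0.0131). SRSF11 (chr1:70205682-70253052), an SR-related protein with one RNA recognition motif, had 359 and 274 CPM in the IP and 146 and 58.4 CPM in Input, a log2 fold change of 1.63 ± 0.44 (SE, n = 2 per group, edgeR adjusted p = 0.0393). The low value of Input replicate 2 set much of the SRSF11 change: its log2 ratio was 1.29 in replicate 1 and 2.22 in replicate 2, and without Input replicate 2 the log2 fold change was 0.96 and SRSF11 was no longer called. SRSF11 also lost its call without IP replicate 1, at a log2 fold change of 1.45, with RLE factors, at 1.58, and with library size alone, at 1.03, whereas SRRM1 and PNISR were called in every alternative fit.

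SREK1 (chr5:66139971-66183615), a regulator of SR protein activity, had 99.8 and 93.5 CPM in the IP against 78.2 and 46.5 CPM in Input. Its libraries did not overlap, but the difference did not pass the test (log2 fold change 0.63 ± 0.29, SE, n = 2 per group, edgeR adjusted p = 0.160), and it was called only without Input replicate 1, at a log2 fold change of 1.10. SRSF10, a splicing repressor when dephosphorylated, had 4.36 to 7.64 CPM over the 4 libraries and a log2 fold change of 0.60. The next 3 genes had values near 0, with log2 fold changes of 0.16 for SRSF7, 0.01 for SRSF4 and -0.03 for TRA2B, and SRSF7 and SRSF4 turned negative with library size alone.

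The 2 transformer homologues, which bind GAA-rich exonic enhancers, did not pass the test. TRA2B (chr3:185914558-185938103) had 243 and 206 CPM in the IP and 215 and 244 CPM in Input, and its 2 replicates differed in direction, with log2 ratios of 0.18 and -0.25. TRA2A (chr7:23504780-23532041) had 59.3 and 44.9 CPM in the IP and 98.8 and 62.9 CPM in Input, with both IP values under both Input values and a log2 fold change of -0.64 ± 0.29 (SE, n = 2 per group, edgeR adjusted p = 0.158).

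Most genes of the classical SR proteins, short proteins with 1 or 2 RNA recognition motifs and an RS domain, lay at the lower end, together with TRA2A. The exceptions were SRSF7 and SRSF4, with values near 0. SRSF6 (chr20:43457893-43466046) was lowest, with 228 and 157 CPM in the IP and 400 and 291 CPM in Input, and a log2 fold change of -0.84 ± 0.30 (SE, n = 2 per group, edgeR adjusted p = 0.0845). SRSF3, the shortest SR protein, which also links splicing to mRNA export, had a log2 fold change of -0.79, and SRSF1, which promotes exon definition, one of -0.71. SRSF9 was at -0.59, SRSF5 at -0.37 and SRSF2, a factor of exon inclusion that shuttles little, at -0.27. In SRSF1, SRSF3, SRSF5, SRSF6, SRSF9 and TRA2A both IP libraries lay below both Input libraries, as they did for 31.9% of all genes tested. Without Input replicate 2, SRSF3, SRSF6 and TRA2A were called depleted, at log2 fold changes of -1.12, -1.21 and -1.08.

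Because IP and Input of a replicate come from the same lysate, the smaller differences were also read from the fit with the replicate as a block, at an adjusted p under 0.05 whatever the fold, a rule chosen after the values were seen. By it 6 SR genes were higher and 5 lower in the IP, and 8 hnRNP genes were higher and 4 lower. The background was high, since 28.7% of all genes tested were higher and 25.6% lower by the same rule. The 5 lower SR genes were SRSF6, SRSF3, SRSF1, TRA2A and SRSF9, with log2 fold changes of -0.85, -0.78, -0.71, -0.61 and -0.59 and edgeR adjusted p from 4.72e-04 to 0.00579.

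Among the hnRNP genes, the highest was HNRNPDL (chr4:82422565-82430462), a paralogue of HNRNPD, with 830 and 525 CPM in the IP against Inputs of 298 and 114 CPM. The log2 fold change was 1.72 ± 0.48 (SE, n = 2 per group, edgeR adjusted p = 0.0442), with log2 ratios of 1.48 and 2.19 in the replicates. HNRNPM (chr19:8444767-8489114), which binds GU-rich RNA, had 1030 and 620 CPM in the IP and 339 and 211 CPM in Input, a log2 fold change of 1.58 ± 0.37 (SE, n = 2 per group, edgeR adjusted p = 0.0266). HNRNPK (chr9:83968083-83980631), a KH-domain protein that binds C-rich RNA and DNA, had 2310 and 1620 CPM in the IP and 749 and 630 CPM in Input, a log2 fold change of 1.51 ± 0.31 (SE, n = 2 per group, edgeR adjusted p = 0.0192). In all of these the IP libraries lay clear of the Inputs, and HNRNPM and HNRNPK had the closer replicates.

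HNRNPU and HNRNPUL1 encode the scaffold attachment factor SAF-A, which ties RNA to chromatin, and a related protein. HNRNPU (chr1:244840638-244864560) had 2030 and 1860 CPM in the IP against 999 and 669 CPM in Input, a log2 fold change of 1.22 ± 0.31 (SE, n = 2 per group, edgeR adjusted p = 0.0337). HNRNPUL1 (chr19:41262496-41307787) had 599 and 418 CPM in the IP against 275 and 175 CPM in Input, a log2 fold change of 1.17 ± 0.33 (SE, n = 2 per group, edgeR adjusted p = 0.0436). The third gene of this group, HNRNPUL2, was low, at 19.9 to 40.7 CPM, and was not called (log2 fold change 0.60, and -0.02 with library size alone, edgeR adjusted p = 0.145). HNRNPDL, HNRNPU and HNRNPUL1 lost their calls without Input replicate 2, at log2 fold changes of 1.03, 0.81 and 0.73, and without IP replicate 1, at 1.38, 1.20 and 0.93, which left 2 enriched hnRNP genes in either case. HNRNPDL and HNRNPUL1 also lost them with RLE factors, HNRNPU and HNRNPUL1 without a count filter, and each of the 5 enriched hnRNP genes with library size alone.

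HNRNPH3 (chr10:68331174-68343193), the shortest protein of the G-tract binding H/F group, was the only member called depleted, with IPs of 20.3 and 24.2 CPM against Inputs of 55.7 and 34.7 CPM. The groups did not overlap, but the log2 ratio was -1.44 in replicate 1 and -0.51 in replicate 2. Its log2 fold change was -1.03 ± 0.29 (SE, n = 2 per group, edgeR adjusted p = 0.0437). The replicate block gave -0.999 and adjusted p = 0.00255 in edgeR, a value just short of the fold limit, so the call was lost there, and it was also lost without Input replicate 1, at -0.60, and without IP replicate 1, at -0.86. Other genes of the H/F group were spread, with log2 fold changes of 0.13 for HNRNPH1, 0.01 for HNRNPH2 and -0.48 for HNRNPF, and HNRNPH1 and HNRNPH2 turned negative with library size alone.

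Of the A/B group and its relatives, proteins with a pair of RNA recognition motifs and a glycine-rich tail, HNRNPDL was the one called gene. HNRNPA1 was at a log2 fold change of 0.53, HNRNPA1L2 at 0.33 and HNRNPAB at 0.31, all of them negative with library size alone, while HNRNPD was at -0.10, HNRNPA2B1 at -0.45, HNRNPA0 at -0.58 and HNRNPA3 at -0.74. In HNRNPA0 and HNRNPA3 both IP libraries lay below both Inputs, as they did for 31.9% of all genes tested. HNRNPC, whose protein measures RNA length in nascent particles, was at 0.80 with an edgeR adjusted p of 0.115. HNRNPR was at 0.27, HNRNPL at 0.26 and HNRNPLL at 0.14, and these turned negative with library size alone.

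**Figure D2:**
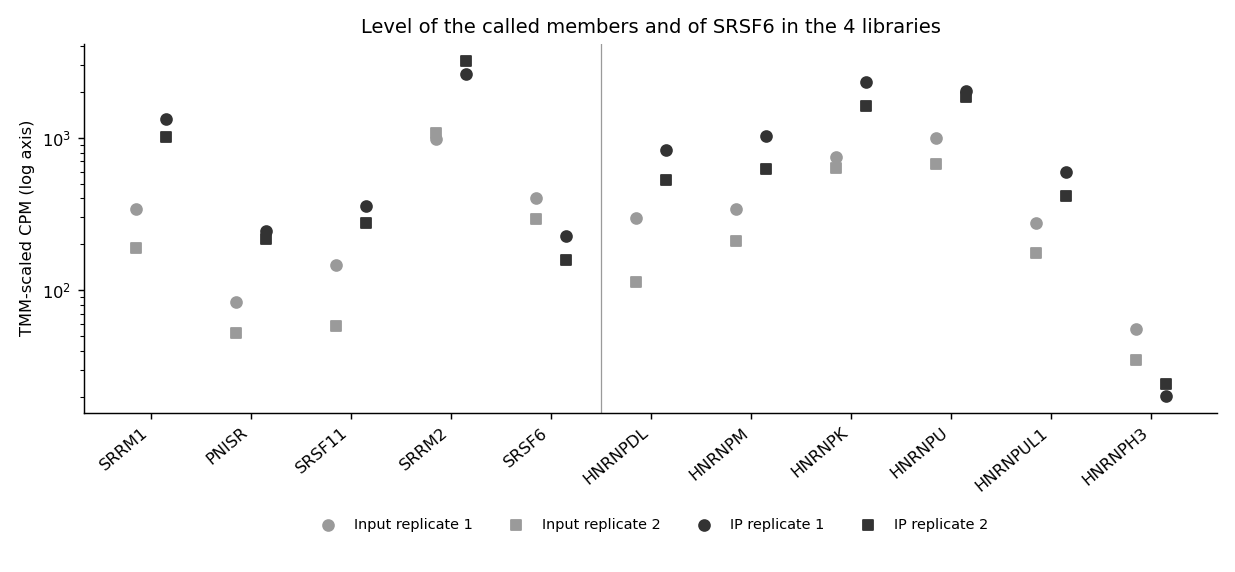
TMM-scaled CPM on a log axis is shown for the 10 called members and SRSF6 in each library, with Inputs in grey, IPs in black, replicate 1 as circles and replicate 2 as squares, SR genes left of the line. The IP points lie above the Input points in the 9 enriched members, and below them in SRSF6, which was not called, and HNRNPH3.

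The family medians lay closer to each other than the members of either family did. The median log2 fold change was -0.01 for the SR genes, over a range of -0.84 to 2.13, and 0.27 for the hnRNP genes, over a range of -1.03 to 1.72, and with library size alone as the scale both medians were negative, at -0.61 and -0.33. The SR median minus the hnRNP median was -0.23 on the log2 ratio scale in replicate 1 and -0.20 in replicate 2, with no test over the members. On the scale of fitted log2 fold changes the difference of the medians was -0.28, and it was -0.59 with the SRSF genes alone for SR and -0.14 without the hnRNP genes that have processed copies. Leaving out 1 library at a time moved the SR median between -0.27 (without Input replicate 2) and 0.23 (without Input replicate 1), the hnRNP median between -0.17 (without Input replicate 2) and 0.62 (with IP replicate 2 left out), and their difference between -0.48 (without IP replicate 2) and -0.06 (without IP replicate 1). Both IP libraries lay above both Inputs in 6 of 16 SR genes and 7 of 21 hnRNP genes, against 33.2% of all genes tested. They lay below them in 6 SR genes and 4 hnRNP genes, against 31.9% of all genes tested.

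The order within each family was alike in the 2 replicates, with Spearman's rho of 0.953 over 16 SR genes and 0.872 over 21 hnRNP genes, given as a description over genes that share libraries. Family totals depended on the scale. As shares of raw counts, SR genes took 0.490% and 0.545% of all counts in IP replicates 1 and 2 and 0.487% and 0.432% in the Inputs. hnRNP genes took 0.915% and 0.755% in the IP and 0.862% and 0.661% in Input. In TMM-scaled CPM the IP total was 1.58 and 1.85 times the Input total in replicates 1 and 2 for SR genes and 1.67 times in both for hnRNP genes. The make-up of each family is a share that does not depend on how libraries are scaled.

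SRRM1 and SRRM2 together took 61.1% and 66.9% of the SR counts in the IP but 32.3% and 37.1% in Input. SRSF1 to SRSF7 and SRSF9 took 23.2% and 19.7% in the IP but 52.4% and 49.1% in Input. Shares of a fixed total fall for one group when another rises, and SRRM1 and SRRM2 were picked for their direction. On the TMM scale no classical SR gene was called depleted, and SRSF7 and SRSF4 had log2 fold changes of 0.16 and 0.01. Among hnRNP genes, the 5 that were enriched took 56.3% and 57.8% of the family's counts in the IP against 36.7% and 34.5% in Input, and were picked for that direction. HNRNPA2B1, HNRNPF, HNRNPA0, HNRNPA3 and HNRNPH3, the 5 lowest, took 9.0% and 10.1% against 22.0% and 23.1%. The 95% Wilson intervals of all these shares were at most 0.49 percentage points on either side and cover counting error only, since reads carried no molecular identifiers.

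**Figure D3:**
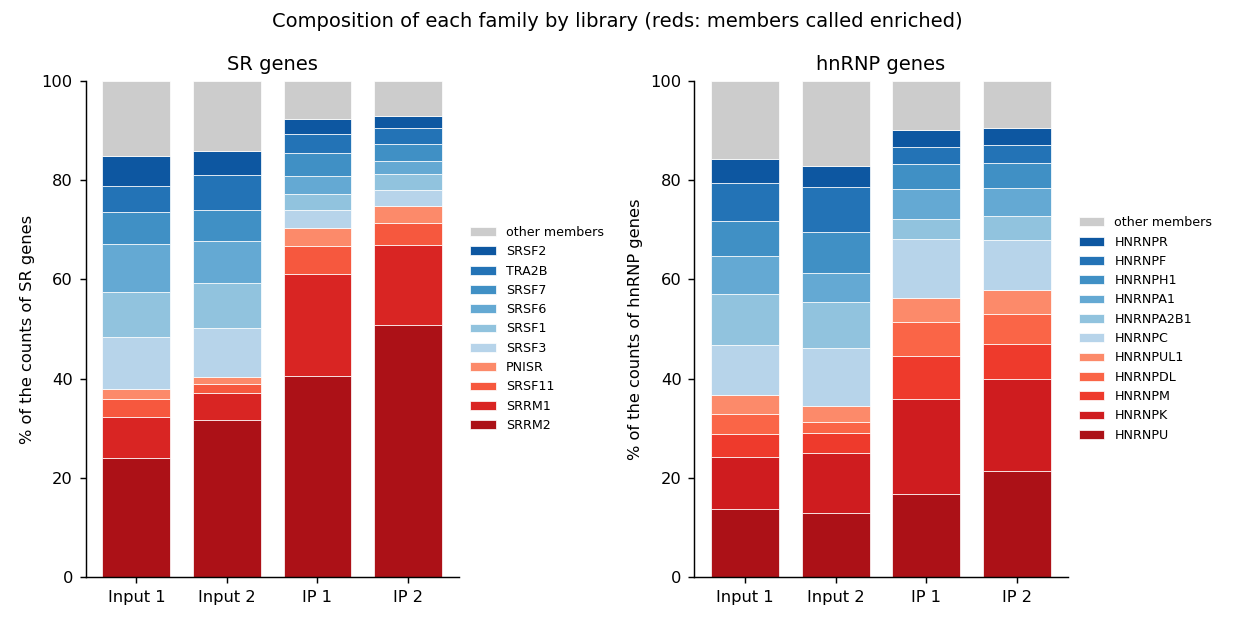
Stacked bars give the share of each family's counts taken by its genes in each library, in percent, with enriched members in reds, other abundant members in blues and the rest in grey, SR genes on the left and hnRNP genes on the right. The red blocks are taller in both IP libraries than in both Inputs, and in the SR family the lowest blocks, SRRM2 and SRRM1, make up 61.1% and 66.9% of the IP bars.

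The members also differed in coding length, which the choice of members had not used. The 13 tested members with under 1000 coding bases in the canonical transcript had a median log2 fold change of -0.27 and none was enriched or depleted. The 17 with 1000 to 1999 bases had a median of 0.13, with 3 enriched and 1 depleted, and of the 7 with 2000 or more bases 6 were enriched, at a median of 1.50. By family, the medians of these bins were -0.37, 0.32 and 1.77 for SR genes and 0.32, 0.13 and 1.20 for hnRNP genes, so the hnRNP medians did not rise between the first and the second bin. Over all protein-coding genes tested they rose, with medians of -0.54, 0.01 and 0.69 and enriched shares of 2.54%, 6.24% and 27.7% in these bins. The depleted shares of the same genes were 21.5%, 4.28% and 0.429%. Spearman's rho between log2 fold change and coding length was 0.674 over 16 SR genes, 0.441 over 21 hnRNP genes and 0.589 over 12542 protein-coding genes, as a description over genes of the same libraries. With the length of the whole canonical transcript it was lower, at 0.274, 0.0584 and 0.263.

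Members lay above and below the median of genes of similar coding length, and the spread of those genes is not given here. Protein-coding genes were put into 10 equal bins by coding length, and against the median of its bin HNRNPDL lay 1.75 higher on the log2 scale, SRSF11 1.59, HNRNPK 1.54 and SRRM1 1.49. SRRM2, with 8256 coding bases, lay 0.43 above its bin, and SRSF3, with 492, lay 0.02 above. The classical genes SRSF2, SRSF5, SRSF9 and SRSF1, which had negative log2 fold changes, differed from their bins by 0.26, -0.01, -0.06 and -0.18. SRSF6 and HNRNPH3 differed from theirs by -0.64 and -0.83. The part of coding length in the members' ratios was not tested.

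**Figure D4:**
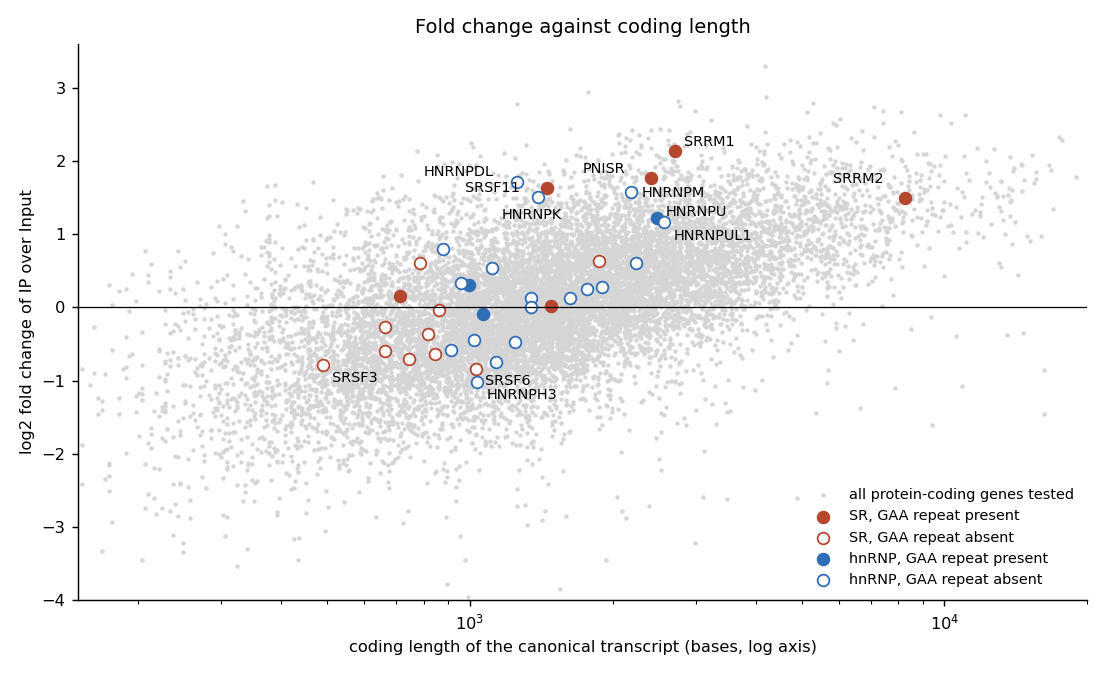
Log2 fold change of IP over Input is plotted against coding length on a log axis, with all protein-coding genes tested in grey, SR genes in red and hnRNP genes in blue, filled where the coding sequence holds the GAA repeat. Members with 2000 or more coding bases had the highest median in both families, at 1.77 for SR genes and 1.20 for hnRNP genes. SRSF11, HNRNPDL and HNRNPK lie above the median of genes of similar coding length, and HNRNPH3 and SRSF6 below it.

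The encoded proteins differed between the families in RS or SR dipeptides and RGG triplets, though the ranges overlapped. The canonical proteins of the SR genes held 9 to 331 RS or SR dipeptides (median 51.0), most in SRRM2 and fewest in SRSF9, and those of the hnRNP genes 1 to 12 (median 4.0). An RGG triplet was present in 16 of 21 hnRNP proteins and 5 of 16 SR proteins. The number of dipeptides went only weakly with the log2 fold change among SR genes (Spearman's rho 0.311 over 16 genes). All 16 SR genes and 14 of 21 hnRNP genes have at least 1 transcript that GENCODE v44 marks for nonsense-mediated decay, against 47.7% of the protein-coding genes tested, and gene-level counts do not separate these transcripts.

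Some member counts could include reads of other genes, since the strand and multiple-mapping settings of the counting are not given in the sources used here. HNRNPA3 shares 53.6% of its exonic bases with NFE2L2 on the opposite strand (log2 fold change 0.59), and SRSF9 shares 43.6% with GATC (log2 fold change -1.66, depleted), also opposite. On the same strand, HNRNPUL2 shares 44.3% of its exonic bases with the readthrough gene HNRNPUL2-BSCL2. GENCODE v44 lists 136 pseudogenes with the symbols of 21 members. Of these 5 had enough counts to be tested and none was called, with at most 40 counts in any library. HNRNPA1 has the most, 74, whose summed counts were 0.225% to 4.76% of its own over the 4 libraries, and HNRNPA1L2 is itself a near copy of HNRNPA1 at 0.941 to 2.45 CPM, so its value is uncertain.

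Genes whose products act with SR proteins and hnRNPs were read from lists chosen with earlier results of these data known. These lists differed in median coding length, from 1221 to 1965 bases, and the part of coding length in them was not tested. Of 9 tested genes for SR protein kinases and their nuclear import, 3 were enriched and none depleted, against 10.5% and 8.3% of all genes tested, with a median log2 fold change of 0.79 against 0.01 over all genes tested. They were SRPK2, which phosphorylates RS domains, at 1.51, PRPF4B, a kinase of the spliceosome, at 1.32, and CLK1, a nuclear RS kinase, at 1.17. SRPK1 was at 0.80 and not called (edgeR adjusted p = 0.0772). With library size alone as the scale, none of these 9 was enriched.

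Of 28 other RS domain genes, 9 were enriched and none depleted, against 10.5% and 8.3% of all genes tested. The median was 0.93, and the list was led by U2SURP at 1.90, CWC22 at 1.71, THRAP3 at 1.55 and SNRNP70 at 1.42. The enriched count rested on the scale, being 1 with library size alone, and it moved when single libraries were left out. The share of all genes called under those settings is not given here. Of 19 hnRNP-type genes with other symbols 1 was enriched and 3 were depleted, against the same 10.5% and 8.3%, at a median of 0.04. The enriched gene was MATR3 of the nuclear matrix at 1.51. Depleted were PTBP3 at -1.79, the cold-shock protein gene RBM3 at -1.65 and SYNCRIP at -1.15. MATR3 lost its call without Input replicate 2, and 2 genes of the list were called enriched without IP replicate 2.

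Of 19 other splicing regulators 5 were enriched and 2 depleted, against 10.5% and 8.3% of all genes tested, at a median of 0.42, and 2 were enriched with library size alone. The paraspeckle genes PSPC1 and SFPQ were at 1.88 and 1.87, and the muscleblind genes MBNL3 and MBNL1 at -1.77 and -1.60. Of 27 genes for core proteins of the spliceosomal particles 11 were enriched and 4 depleted, against the same 10.5% and 8.3%, at a median of 0.64. This list spanned the widest range, from -2.88 for SNRPF, a small Sm ring protein with 258 coding bases, to 2.35 for PRPF3 of the tri-snRNP, with SF3B1 at 2.23 and PRPF6 at 2.21.

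**Figure D5:**
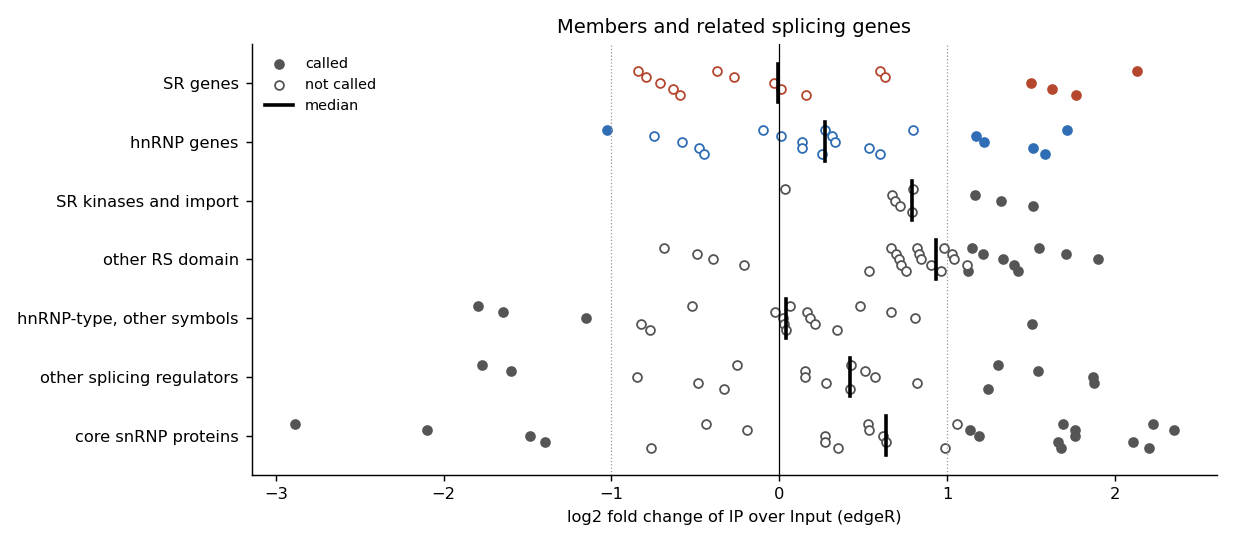
Each point is a gene's log2 fold change of IP over Input, filled where called, with a black bar at the median of each list. The SR and hnRNP rows centre on -0.01 and 0.27, the other RS domain genes on 0.93, and the core snRNP genes spread from -2.88 to 2.35.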

How the data were processed

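Native RIP-seq of ORC1-3xFLAG from HCT116 nuclei was analysed in 4 libraries, 2 IP and 2 Input. The authors deposited raw counts per gene, made per the submitters' processing notes with Trimmomatic, STAR and featureCounts on hg19 (strand setting not given in the sources used here), from TruSeq Stranded Total RNA libraries. The largest library, IP replicate 1, held 27483148 counts and the smallest 9213877. Members were matched by gene ID to GENCODE v44 (GRCh38), which named 52181 of 63677 IDs. Coding sequences, coordinates and motifs come from GENCODE v44.

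Counts were fitted with edgeR 4.0.16 in R 4.3.3 (filterByExpr, TMM, robust quasi-likelihood test, Benjamini-Hochberg over all genes tested), and tested on simulated data. Standard errors are the log2 fold change divided by the square root of F. Replicate ratios used TMM-scaled CPM plus 0.5. The study set Input as reference in DESeq2, which was run as an alternative (1.42.0), as were limma voom (3.58.1), other scalings and filters, a replicate block, leaving out each library, other pseudocounts, other memberships and the longest coding sequence. Labels tie IP and Input of a RIP replicate, and their deviations from group means went together (r = 0.637). No spike-in was used here, so ratios are relative.

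The members and lists were chosen with earlier results of these data known. Library values are given for called members, the highest and lowest of each family and the 6 genes named by the rule, and up to 4 called genes per list plus SRPK1 and CLK1.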

Additional observations from a re-analysis of the deposited data

How the results depend on the processing

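The shares of all genes called under alternative settings are given only for the replicate block. Counts of called genes under the other settings, here and above, therefore lack a background. Library size alone moved the median of all genes tested by -0.60 on the log2 scale. It left 2 SR and 0 hnRNP genes enriched and made 5 and 5 depleted, and left 0 SR kinase genes, 1 other RS domain, 0 hnRNP-type and 2 other regulator genes enriched, with 2 RS domain and 6 hnRNP-type genes depleted. Medians of the log2 fold change were then -0.61 (SR) and -0.33 (hnRNP), with replicate medians of -0.64 and -0.58 for SR and -0.39 and -0.38 for hnRNP. SRRM2, HNRNPK and HNRNPM lost their calls only there, at 0.91, 0.90 and 0.97. Signs turned for HNRNPUL2 (-0.02), HNRNPA1 (-0.07), HNRNPA1L2 (-0.27), HNRNPAB (-0.30), HNRNPR (-0.33), HNRNPL (-0.36), HNRNPLL (-0.48), HNRNPH1 (-0.48), HNRNPH2 (-0.61), SRSF7 (-0.45) and SRSF4 (-0.58). Upper-quartile factors gave 1 depleted SR gene, medians of -0.18 and 0.11, replicate medians of -0.17 and -0.19 for SR and 0.06 and 0.01 for hnRNP, and values of -0.04 for HNRNPLL and HNRNPH1, -0.17 for HNRNPH2, -0.02 for SRSF7 and -0.15 for SRSF4. RLE factors gave 3 enriched SR genes, 3 enriched and 0 depleted hnRNP genes, an SR median of -0.04 and replicate 1 medians of -0.05 (SR) and 0.17 (hnRNP). No count filter gave 3 enriched hnRNP genes, an hnRNP median of 0.23 and a family difference of -0.25, and the filter of 1 CPM an SR median of -0.04. The SRSF genes alone had a median of -0.32 and a difference of -0.59, and hnRNP genes without pseudogene copies a median of 0.14 and a difference of -0.14. HNRNPH2 was at -0.02 with RLE, DESeq2, limma voom and the block, -0.01 without filter and -0.03 with the CPM filter. SRSF4 was at -0.02 with RLE, DESeq2 and the CPM filter and -0.03 without filter.

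limma voom and the replicate block each gave 0 depleted hnRNP genes, and the block changed no other member's call. With the replicate block and the adjusted p alone, chosen after seeing the data, 5 SR and 4 hnRNP genes were lower and 8 hnRNP genes higher. Leaving out 1 library at a time assumes that the lone library varies like the others. It gave 3 to 5 enriched and 0 to 3 depleted SR genes, 2 to 5 and 0 to 1 hnRNP genes, 2 to 4 enriched SR kinase genes, 8 to 17 RS domain genes, 0 to 2 and 2 to 4 hnRNP-type genes, 4 to 6 and 2 to 3 regulators, and 9 to 13 and 4 to 5 core genes. The SR median ranged from -0.27 to 0.23, the hnRNP median from -0.17 to 0.62 and their difference from -0.48 to -0.06. Signs turned within the range of these fits, that is -0.27 to 1.12 for HNRNPA1L2, -0.12 to 0.69 for HNRNPAB, -0.19 to 0.72 for HNRNPR, -0.09 to 0.57 for HNRNPL, -0.19 to 0.46 for HNRNPLL, -0.15 to 0.40 for HNRNPH1, -0.28 to 0.33 for HNRNPH2, -0.41 to 0.12 for HNRNPD, -0.14 to 0.41 for SRSF7, -0.40 to 0.38 for SRSF4, -0.11 to 0.14 for TRA2B and -0.69 to 0.10 for SRSF2. The cause of these moves was not tested.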
